A study of Mus with 5 samples.

Results

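The 3 TGF-beta ligand genes *Tgfb1*, *Tgfb2* and *Tgfb3* and the 3 receptor genes *Tgfbr1*, *Tgfbr2* and *Tgfbr3* were compared between hearts that overexpress *Bmp2* in the myocardium and WT hearts. They were set by Ensembl identifier and not by a cut on their values, though earlier results of these data were known. All 6 were present among the 12857 genes with values, and all 6 passed the filter on low values. RNA-seq libraries came from E14.5 hearts without atria, described in the labels as ventricles and valves. There were 3 pools of Nkx2.5Cre/+;Bmp2tg/+ hearts (labelled Nkx2.5CRE;Bmp2 and here called transgenic) and 2 pools of WT hearts. Each pool held 4 embryos. The authors excluded a further WT pool because it clustered poorly with the other WT samples. Expression of the *Bmp2* transgene, made together with eGFP from a CAG promoter at *Rosa26*, starts where *Nkx2.5*-driven Cre has cut out a stop cassette, and the allele goes back to a single ES cell clone. Transgenic pools carry the Cre allele too, and whether the WT pools carry it is not given. In the paper's breeding table, embryos without the transgene from the *Nkx2.5*Cre cross are all Nkx2.5Cre/+. If the WT pools lacked Cre, its part and that of *Bmp2* cannot be told apart. Whether WT embryos were littermates is not given in the sources used here.

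TGF-beta ligands are secreted as latent dimers that are released in the extracellular matrix. An active ligand binds the type II receptor encoded by *Tgfbr2*, which then phosphorylates the type I receptor encoded by *Tgfbr1*, and this kinase activates Smad2 and Smad3. The product of *Tgfbr3*, betaglycan, is a co-receptor without a kinase that presents ligand to the type II receptor and is most needed for the ligand made from *Tgfb2*. In the embryonic heart this pathway acts with BMP signals in the transition of endocardial cells to cushion mesenchyme, and *Tgfbr3* is also required for coronary vessel development.

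*Tgfbr3* fell by 24.0% in transgenic hearts, and it was the single gene of the 6 that passed the test. *Tgfb1*, *Tgfb2*, *Tgfb3*, *Tgfbr1* and *Tgfbr2* did not pass. Levels were compared as CPM (reads of a gene scaled to an adjusted total of its library) on the scale of log2(CPM + 0.5). The limma test was used over all genes with Benjamini-Hochberg adjustment, and a gene was called at an adjusted p of 0.05 or less. Of all 12857 genes, 2.82% were called in either direction with 1.59% called lower and 1.22% called higher in transgenic hearts. The 6 genes had a median log2 fold change of -0.13, and all genes had a median of 0.00452. These 6 values are too few to read the count of 1 called gene as more than a description.

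**Figure D1:**
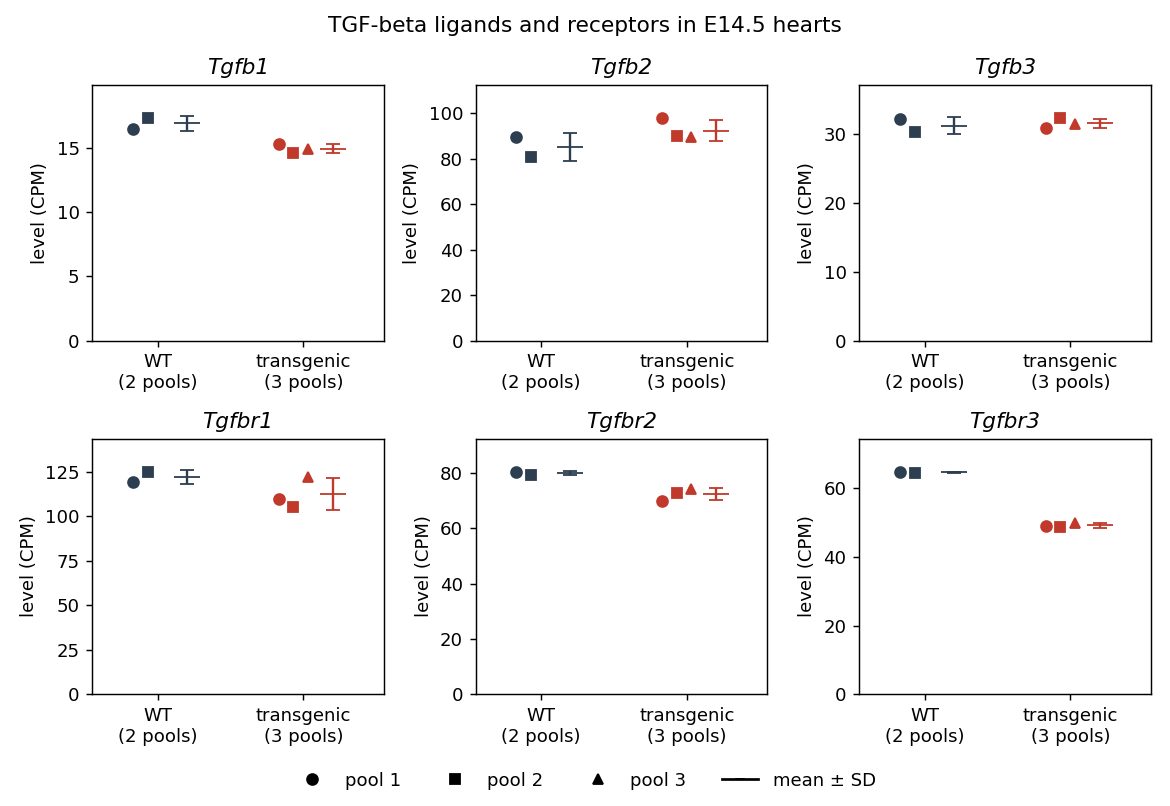
Level of each gene in CPM (vertical axes, each from 0) in the 2 WT and the 3 transgenic pools, with a symbol for each pool and the mean ± SD beside them. For *Tgfbr3* the transgenic pools lie between 48.6 and 50.02 CPM and the WT pools at 64.6 and 64.8 CPM, while for *Tgfb2*, *Tgfb3* and *Tgfbr1* the pools of both genotypes overlap.

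Among the ligands, *Tgfb2* (ENSMUSG00000039239, chromosome 1 of GRCm38, 186622787 to 186709697) encodes the TGF-beta of the cushion myocardium and mesenchyme. It was at 97.7, 89.8 and 89.4 CPM in transgenic pools 1, 2 and 3 and at 89.4 and 80.7 CPM in WT pools 1 and 2. Transgenic pool 1 was the highest and WT pool 2 the lowest, and the groups met at 89.4 CPM, where transgenic pool 3 lay just under WT pool 1. The means were 92.3 ± 4.71 CPM (SD, n = 3 pools) and 85.1 ± 6.19 CPM (SD, n = 2 pools), a difference of 7.24 CPM. The log2 fold change of *Tgfb2* was 0.12 (95% confidence interval -0.03 to 0.26, limma adjusted p = 0.390). The size of this value depended on single WT pools, since it was 0.19 without WT pool 1 and 0.04 without WT pool 2. The chi-square per degree of freedom was 2.33 among transgenic pools and 3.73 among WT pools, where counting error alone averages 1. With 3 and 2 pools, these values do not settle whether the spread exceeded counting error.

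*Tgfb1* (ENSMUSG00000002603, chromosome 7, 25687002 to 25705077), a ligand made by endothelial and blood cells, was at 15.3, 14.6 and 14.9 CPM in transgenic pools and at 16.5 and 17.3 CPM in WT pools. Every transgenic pool was below both WT pools. The log2 fold change was -0.17 (95% confidence interval -0.41 to 0.07, limma adjusted p = 0.445), so the difference did not pass the test. *Tgfb1* had the fewest reads of the 6 genes, from 119 to 160 per library. At its standard error of 0.11, a log2 fold change would have needed a size of 0.43 to pass, and smaller changes were not detectable at this depth and number of pools.

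*Tgfb3* (ENSMUSG00000021253, chromosome 12, 86056743 to 86079041), a ligand known from palate fusion and from cushion and valve tissue, was at 30.8, 32.2 and 31.4 CPM in transgenic pools and at 32.0 and 30.3 CPM in WT pools. The values of both genotypes were interleaved. The log2 fold change was 0.01 (95% confidence interval -0.17 to 0.19, limma adjusted p = 0.955), and its sign turned with the scaling of the libraries and without single pools. This interval leaves out changes of more than 0.19 upwards and 0.17 downwards on the log2 scale, and does not show that the levels were equal.

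Summed over the 3 ligand genes, the level was 143.8, 136.6 and 135.7 CPM in transgenic pools, against 138.0 and 128.3 CPM in WT pools. WT pool 1 lay within the range of the transgenic pools. *Tgfb2* gave most of the ligand reads in every library, but longer transcripts give more reads and lengths were not available, so levels of different genes were not ranked.

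Among the receptors, *Tgfbr3* (ENSMUSG00000029287, chromosome 5, 107106567 to 107289629) was at 49.0, 48.6 and 50.02 CPM in transgenic pools 1, 2 and 3. In WT pools 1 and 2 it was at 64.8 and 64.6 CPM. All transgenic pools were below both WT pools, with a gap of 14.6 CPM between the highest transgenic and the lowest WT value. The means were 49.2 ± 0.725 CPM (SD, n = 3 pools) and 64.7 ± 0.143 CPM (SD, n = 2 pools), so that *Tgfbr3* fell by 24.0%. The log2 fold change was -0.39 (standard error 0.07, 95% confidence interval -0.54 to -0.25, limma adjusted p = 0.00494). Of the 205 genes called lower in transgenic hearts, *Tgfbr3* had the 112th largest change, and their median log2 fold change was -0.41.

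The values of *Tgfbr3* rested on 512, 453 and 400 reads in transgenic pools and on 613 and 482 reads in WT pools. Pools of one genotype were closer to each other than counting error alone gives on average, with a chi-square per degree of freedom of 0.0907 among transgenic and 0.00263 among WT pools. The WT pools are those left after the authors excluded a poorly clustering one, which can make the spread among WT pools look small. Among the 16 other settings, leaving out the filter repeats the main fit, since the filter removed 0 genes. A block for pool number gives the same estimate of *Tgfbr3* as leaving out transgenic pool 3. The estimate was almost the same in each of the 16 settings, from -0.41 to -0.38. The call was less firm: it was kept in 13 of them and was lost without WT pool 1 (limma adjusted p = 0.122), without WT pool 2 (limma adjusted p = 0.102) and in limma without the variance trend (limma adjusted p = 0.145). With 1 WT pool left out, the other WT pool is assumed to vary like the transgenic pools. DESeq2 and edgeR's quasi-likelihood test on the recovered reads both called *Tgfbr3*, with adjusted p-values of 0.0105 and 0.00694.

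The type II receptor gene *Tgfbr2* (ENSMUSG00000032440, chromosome 9, 116087695 to 116175363) was at 70.1, 72.9 and 74.3 CPM in transgenic pools and at 80.5 and 79.5 CPM in WT pools. As for *Tgfbr3*, every transgenic pool was below both WT pools, here by a gap of 5.201 CPM. The log2 fold change was -0.14 (95% confidence interval -0.28 to -0.01), and it did not pass once adjusted over all genes (limma adjusted p = 0.255). *Tgfbr2* and *Tgfbr3* were the 2 genes of the 6 with an unadjusted p under 0.05, as 17.7% of all genes were. It lay between -0.16 and -0.12 in the 16 other settings and was called in 0 of them. Summed over the 3 receptor genes, the level was 228.7, 227.0 and 246.7 CPM in transgenic pools, against 264.7 and 269.1 CPM in WT pools.

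*Tgfbr1* (ENSMUSG00000007613, chromosome 4, 47353222 to 47414926), the type I receptor kinase gene, was at 109.6, 105.4 and 122.4 CPM in transgenic pools and at 119.5 and 125.1 CPM in WT pools. Transgenic pool 3 lay between the WT pools, while transgenic pools 1 and 2 were below both. The log2 fold change was -0.12 (95% confidence interval -0.27 to 0.02, limma adjusted p = 0.366), and -0.18 without transgenic pool 3 (limma adjusted p = 0.134). Transgenic pools differed among themselves by more than read counting gives for this gene, with a chi-square per degree of freedom of 5.95.

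**Figure D2:**
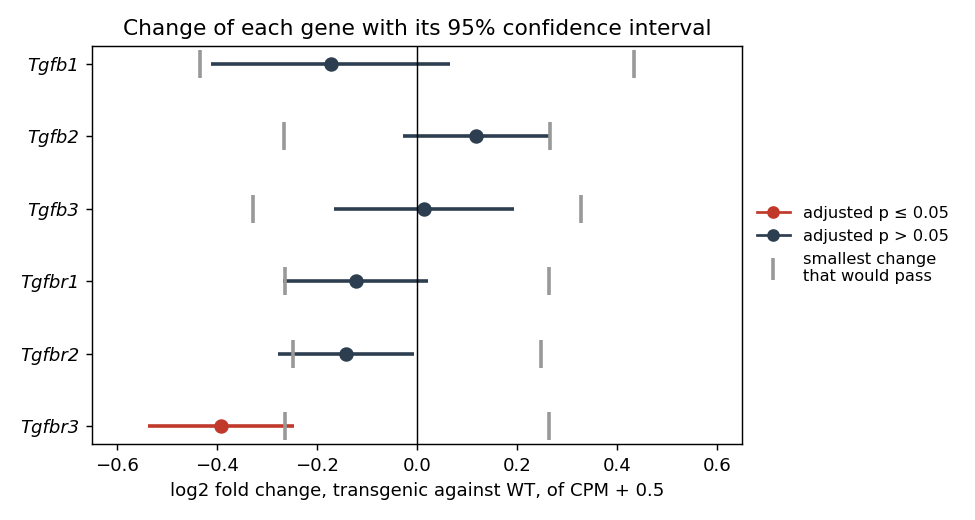
Log2 fold change of each gene, transgenic against WT (points, horizontal axis), with its 95% confidence interval (lines) and the smallest change in either direction that would have passed the test at that gene's standard error (grey ticks). Only *Tgfbr3*, at -0.39, lies beyond its grey tick of 0.26, and the point of *Tgfb3* lies at 0.01.

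In all, 3 of the 6 genes (*Tgfb1*, *Tgfbr2* and *Tgfbr3*) had transgenic pools that were all on one side of both WT pools, each time lower. Of all 12857 genes, 35.7% did not overlap in either direction with transgenic pools lower in 18.0% and higher in 17.7%. The smallest p of an exact permutation test of 3 pools against 2 is 0.1 one-sided and 0.2 two-sided, and the limma p-values draw on a variance shared over genes. Nothing says that hearts in different pools came from different litters, and the p-values measure the spread between pools only.

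**Figure D3:**
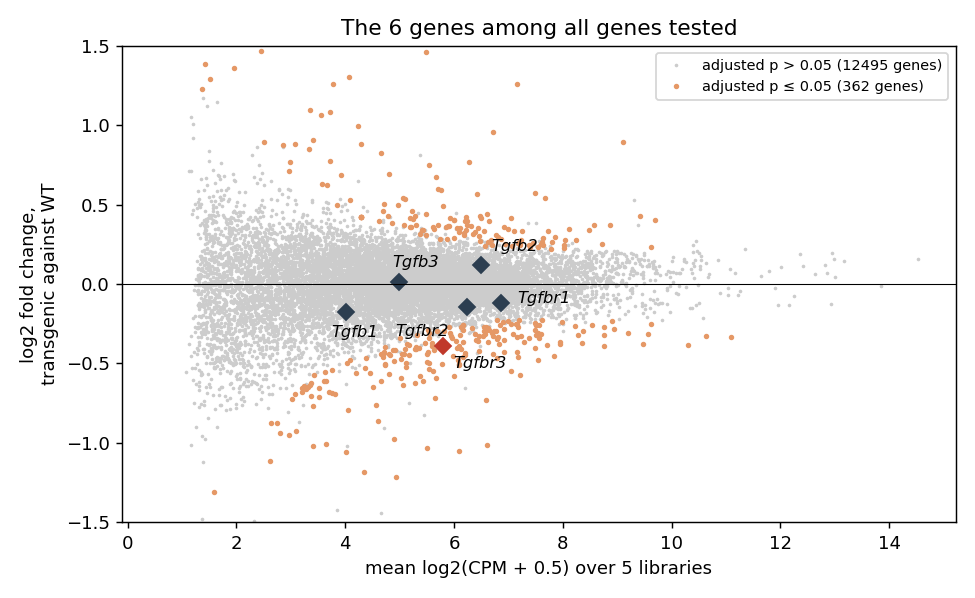
Log2 fold change, transgenic against WT (vertical axis), against the mean log2(CPM + 0.5) over 5 libraries (horizontal axis) for 12857 genes, with the 362 called genes in orange, the 6 TGF-beta genes as diamonds, and 25 genes beyond 1.5 in either direction outside the axis. *Tgfbr3* (red diamond) lies among the called genes at -0.39, and the other 5 (dark diamonds) lie among genes that were not called.

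Ratios of reads between 2 genes of the same library do not depend on how libraries were scaled, and were examined for all 15 pairs. *Tgfbr3* was lower in transgenic pools relative to each of the other 5 genes, without overlap between the genotypes. There were 0.698, 0.667 and 0.673 reads of *Tgfbr3* per read of *Tgfbr2* in transgenic pools and 0.806 and 0.813 in WT pools. Relative to *Tgfbr1*, the co-receptor was at 0.447, 0.461 and 0.409 reads in transgenic pools and at 0.542 and 0.517 reads in WT pools. Both comparisons put the co-receptor lower relative to the kinase receptors it works with.

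The largest shift was that of *Tgfbr3* relative to *Tgfb2*. This ratio joins the fall of *Tgfbr3* with the change of *Tgfb2*, the highest of the 6 genes at a log2 fold change of 0.12, which did not pass the test. Reads of *Tgfbr3* per read of *Tgfb2* were 0.501, 0.542 and 0.559 in transgenic pools and 0.725 and 0.801 in WT pools, so that the mean ratio fell by 30.0%. The ratio of *Tgfbr2* to *Tgfbr1* overlapped between genotypes, at 0.640, 0.691 and 0.607 in transgenic pools and at 0.673 and 0.636 in WT pools. Of the 10 pairs without *Tgfbr3*, 4 did not overlap: *Tgfbr2* was lower relative to *Tgfb2* and to *Tgfb3*, and *Tgfb1* was lower relative to the same 2 ligands. Ratios that share a gene are not independent of each other and were not tested. How many ratios of other gene pairs do not overlap was not worked out, and among single genes 35.7% did not overlap. The counts of ratios are therefore a description only.

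**Figure D4:**
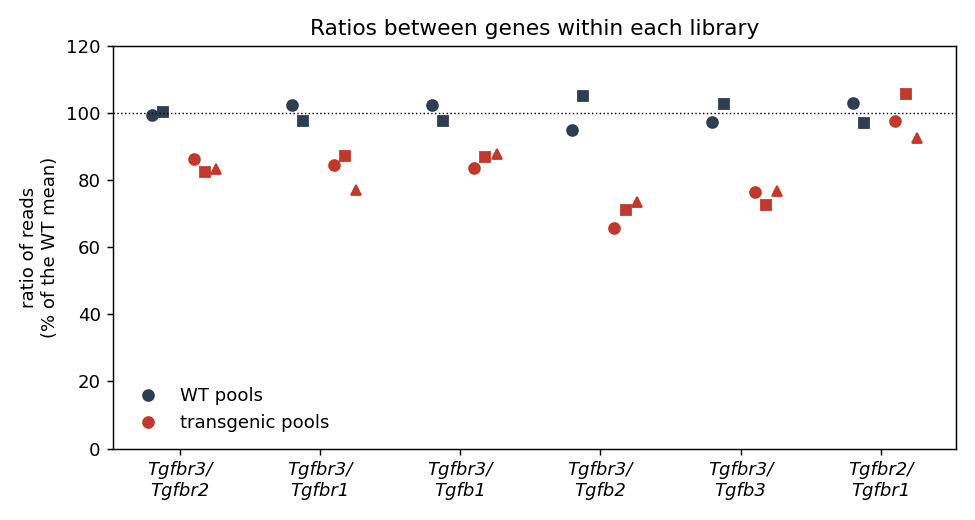
Ratio of reads between 2 genes within each library, as a percentage of the WT mean of that ratio (vertical axis from 0), for *Tgfbr3* relative to each of the other 5 genes and for *Tgfbr2* relative to *Tgfbr1*. Transgenic pools (red) lie below both WT pools (dark) for the 5 ratios with *Tgfbr3* and on both sides of them for *Tgfbr2* relative to *Tgfbr1*, with the same symbols for pools 1 to 3 as in the plot of levels.

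Other genes of the pathway were listed by role: latency and activation, co-receptors and ligand-binding proteins, Smads and receptor regulators, and response genes. Of these 64 genes, symbols could be paired with identifiers for 4, through a list of altered genes that the study drew from these same libraries. The 4 are therefore not independent evidence of a direction, and the lists could not be described as groups. *Eng*, *Acvrl1*, *Smad2*, *Smad3* and *Smad4* were not among the paired genes and were not analysed here. Of the 4 genes, 1 was called higher, 1 was called lower and 2 were not called.

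*Smad7*, an inhibitory Smad that is induced by both BMP and TGF-beta signals and blocks type I receptors of both kinds, was at 36.6, 39.7 and 38.8 CPM in transgenic pools and at 26.4 and 25.9 CPM in WT pools. It rose by 0.54 on the log2 scale (limma adjusted p = 0.00206), with transgenic pools above both WT pools, and the call was lost in the same 3 settings as that of *Tgfbr3*. *Fbn1*, which encodes fibrillin, the microfibril protein that anchors latent TGF-beta complexes in the matrix, was at 293.5, 257.9 and 278.2 CPM in transgenic pools and at 337.9 and 325.3 CPM in WT pools. Its log2 fold change was -0.26 (limma adjusted p = 0.0275). The call was lost without transgenic pool 2 (limma adjusted p = 0.0666), without either WT pool, and in limma without the variance trend (limma adjusted p = 0.271).

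*Dcn*, the gene of the TGF-beta-binding proteoglycan decorin, had a log2 fold change of -0.22 and was not called (limma adjusted p = 0.0736). It was called without transgenic pool 3 (limma adjusted p = 0.0396) and with pool number as a block (limma adjusted p = 0.0210), and its value was -0.29 without WT pool 1 and -0.15 without WT pool 2. *Strap*, which encodes a protein that binds TGF-beta receptors and Smad7, had a log2 fold change of 0.21 and was not called either (limma adjusted p = 0.0767). For both genes the pools of the genotypes did not overlap. *Bmp2* itself, the transgene's product, was at 23.0, 27.1 and 23.3 CPM in transgenic pools, against 14.1 and 10.2 CPM in WT pools.

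*Tgfbr3* is transcribed in several cell types of the heart, and in whole ventricles fewer cells of a type and less RNA per cell cannot be told apart. Of 61 marker genes in 8 cell type lists, 12 could be paired by the same route, 6 of them called lower, 3 called higher and 3 not called, so no list could be checked as a whole. None of the red cell or leukocyte markers was paired, and 1 of 8 cardiomyocyte markers was paired, *Ryr2*, which fell by 0.28 on the log2 scale (limma adjusted p = 0.0175). The 1 paired marker of 8 for valve and cushion mesenchyme, *Tbx20*, rose by 0.41 on the log2 scale (limma adjusted p = 0.00162). The paper also reports *Tbx20* in ventricular myocardium and its spread to the trabeculae of transgenic hearts. Its rise is therefore not a reading of mesenchyme alone. The 3 paired endothelial genes of 8 (*Cdh5*, *Kdr* and *Tie1*) had a summed level of 426 to 506 CPM in transgenic and of 590 to 603 CPM in WT pools. *Kdr*, a VEGF receptor gene, fell by 0.46 and *Tie1* fell by 0.31 on the log2 scale (limma adjusted p = 0.00286 and 0.0277), and *Cdh5* had a log2 fold change of -0.25 (limma adjusted p = 0.0563).

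The 3 paired smooth muscle and pericyte genes of 8 (*Pdgfrb*, *Rgs5* and *Myh11*) had a summed level of 138 to 157 CPM in transgenic and of 185 to 188 CPM in WT pools. Among the epicardial list, 3 of 8 were paired and did not move one way: *Pdgfra* fell by 0.34 and *Tbx18* rose by 0.37 on the log2 scale (limma adjusted p = 0.00919 and 0.00476), and *Dcn* was not called. The summed level of these 3 epicardial genes was 344 to 369 CPM in transgenic and 377 to 402 CPM in WT pools. *Ryr2*, of the cardiomyocyte list, was at 425 to 480 CPM in transgenic and at 548 to 556 CPM in WT pools. The endothelial, smooth muscle and pericyte, and epicardial sums and *Ryr2* were lower in transgenic pools, and *Tbx18*, *Tbx20* and *Myl7* were higher. The paired genes are few of each list. They were paired through the study's list of genes altered in these same libraries, which favours genes that differ between genotypes. The sums therefore do not show how the cell types themselves changed. The part of these genes in the difference of *Tgfbr3* was not tested. *Myl7*, the gene of the atrial myosin light chain, was at 616.5 to 869.4 CPM in transgenic and at 373.3 to 384.2 CPM in WT pools, and its part was not tested.

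Genes most like *Tgfbr3* over the 5 libraries were sought among 403 genes with a symbol and a mean of at least 5 CPM, nearly all of them from the study's list of altered genes. The 3 most alike were *Mical3*, which encodes an actin-oxidising enzyme, *Tpm3*, a tropomyosin gene, and *Etv1*, an Ets transcription factor gene, with Pearson correlations of log2 levels of 0.996, 0.995 and 0.993. All 3 fell in transgenic hearts, by 0.50, 0.36 and 0.44 on the log2 scale (limma adjusted p = 0.00282, 0.00165 and 0.00816). With 2 genotypes and 5 libraries such correlations mainly restate the difference between genotypes. For *Tgfb2*, which did not pass the test, the most alike were *Rps13-ps2*, *Mycn* and *Tmem51*, with correlations of 0.917, 0.888 and 0.881, all called higher in transgenic hearts. As many as 162 of 11482 genes were as much like *Tgfb2* as *Rps13-ps2*, a pseudogene whose reads may be shared with *Rps13*.

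Reads of overlapping annotated genes could add to these values where exons overlap and the counting did not use strand. Use of strand is not stated for these libraries. Whole gene spans with introns were compared here, and overlap of exons was not checked. In the RefSeq annotation of GRCm38.p6, a long non-coding RNA gene overlapped *Tgfbr1* (*Gm32435*), *Tgfbr2* (*Gm31292*) and *Tgfb2* (*Gm35655*). *Tgfb2* also holds a snoRNA gene, and *Tgfbr3* holds a pseudogene, *Gm8145*. No annotated gene overlapped *Tgfb1* or *Tgfb3*.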

How the data were processed

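RNA-seq was analysed from 3 transgenic and 2 WT pools of E14.5 hearts (4 hearts per pool; single-end reads of 75 bp). The authors removed adaptors with cutadapt, estimated gene expression by RSEM against the Ensembl transcripts of GRCm38, and left out 1 WT pool; the submitters' processing notes also name Bowtie 0.12.9 and edgeR 3.0.8. The deposited values are CPM, which the authors set against adjusted library totals, for 12857 genes; 0 columns were left unused. In every library 100% of values were whole multiples of 1 read (tolerance 0.01 reads), and the recovered reads came to 7427905 to 10564780 per library. A count of 0 allows up to 3 reads, or 0.287 to 0.402 CPM, which covers counting error only.

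The test used was that of limma 3.58.1 (R 4.3.3) on log2(CPM + 0.5) values (variance trend, no covariates), over all genes with at least 1 CPM in at least 2 libraries (0 removed). Standard errors, 95% confidence intervals and adjusted p-values come from this fit. The tests were tested on simulated data. Alternatives were other pseudocounts, filters and scalings, limma without the trend, edgeR 4.0.16 and DESeq2 1.42.0 on the recovered reads, a block for pool number, and leaving out single pools. The RefSeq table pairs 0 of its genes with Ensembl identifiers. It gave positions by symbol, and symbols of other genes came from the study's list of altered genes (405 identifiers). All 6 genes are named, with every called gene of the TGF-beta pathway lists and, for *Tgfbr3* and *Tgfb2*, the 3 named genes of highest correlation. Of a separate list of BMP response genes, only *Bmp2* and *Smad7* are named. The genes and lists were chosen with earlier results of these data known. Sequences were not used here.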

Additional observations from a re-analysis of the deposited data

How the results depend on the processing

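The log2 fold changes of *Tgfb1*, *Tgfb2*, *Tgfbr1*, *Tgfbr2* and *Tgfbr3* kept their sign in all 16 other settings, and *Tgfb1*, *Tgfb2*, *Tgfb3*, *Tgfbr1* and *Tgfbr2* were called in 0 of them. *Tgfb3* changed sign in 3, with log2 fold changes of -0.0047 with libraries scaled to the same total, -0.0028 without transgenic pool 2 and -0.026 without WT pool 2, and its range was -0.026 to 0.054 when single pools were left out. The number of the 6 genes called was 1, and 0 in limma without the variance trend; it was 0 to 1 when single pools were left out, and 0 without either WT pool. The cause was not tested. Of the 4 named pathway genes, 2 were called, 0 without the variance trend, and 0 to 3 with a pool left out (1 without transgenic pool 2, 3 without transgenic pool 3, and 0 without either WT pool). Over all genes 362 were called, 10 without the variance trend (10 higher and 0 lower; 1846 at an unadjusted p under 0.05), 229 with DESeq2, and 43 to 464 with a pool left out (226 without transgenic pool 2, 45 without WT pool 1 and 43 without WT pool 2). Scaling to the same total changed the split from 157 higher and 205 lower to 125 and 251. With the pool number as a replicate block, 655 genes were called, 1 of the 6 genes among them (*Tgfbr3*, limma adjusted p = 0.00453). Same-numbered pools share only a number: their deviations correlated at -0.026 and -0.050 across genes, and this block leaves transgenic pool 3 without weight. With 2 WT pools, changes under about 0.25 on the log2 scale could not pass for any of the 6 genes.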
